A study of Mus musculus with 8 samples.

Results

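The actin regulators of the oocyte cortex and spindle are described here as 44 genes chosen by symbol. They comprise 2 actins, 7 formins and Spire nucleators, 8 subunits of the Arp2/3 complex, 4 of its activators, 6 monomer-binding or severing proteins, 3 capping protein subunits, 4 myosins, 3 ezrin-radixin-moesin (ERM) linkers and 7 switches and kinases that act upstream of actin. All 44 were rows of the count table, which lists 35976 gene symbols, and all 44 passed the filter on low counts, as did 16847 genes overall. RNA was measured in full-grown oocytes (FGOs), the grown immature oocytes of the mouse ovary, by sequencing polyadenylated RNA. Each library came from a pool of about 20 FGOs whose zona pellucida had been removed. The 8 libraries formed 4 groups of 2, namely H2A.Z control (genotype labelled wild type), H2A.Z DKO (labelled a double knockout of H2A.Z.1 and H2A.Z.2), Mll2 WT (wild type) and Mll2 KO (Mll2 knockout). The first pair of groups is called the H2A.Z line and the second the Mll2 line. The labels used here give no strain, age, Cre driver or number of animals, so the spread between these libraries may be technical. P-values rest on that spread, pooled over the 4 groups and moderated by that of all genes.

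Actin filaments are built from globular actin monomers by nucleators, namely formins, Spire proteins and the branched-filament Arp2/3 complex. Profilins and thymosins hold the monomer pool, cofilins sever filaments, and capping protein closes their fast-growing ends. In the mouse oocyte, formin-2 and Spire build the cytoplasmic mesh that carries the meiotic spindle to the cortex, myosin Vb drives vesicles along that mesh, and Arp2/3, Rac, Cdc42, myosin II and the ERM linkers shape the cortex around the spindle. H2A.Z is a histone variant found at promoters, and Mll2, encoded by Kmt2b, methylates histone H3 at lysine 4 at CpG-rich promoters.

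Library totals ranged from 20309233 to 30087863 counts, and replicate libraries correlated at Pearson's r of 0.984 to 0.989 on log2 counts per 1000000 (CPM) over tested genes. The chi-square per degree of freedom between replicate counts was 38.4 in the Mll2 KO pair against 4.64 to 12.5 in the other groups, so the Mll2 KO libraries differed most from each other. CPM were scaled by trimmed mean of M values (TMM), and a gene was called at a Benjamini-Hochberg adjusted p under 0.05 in edgeR's quasi-likelihood test. The targeted transcripts went against the DKO label. H2afz, which encodes H2A.Z.1, was at 23.9 and 30.0 CPM in its controls and rose to 322 and 317 CPM under the DKO label, and H2afv, which encodes H2A.Z.2, was at 108 and 107 against 285 and 294 CPM. Both transcripts were therefore higher, not lower, under that label, and each direction given below for the H2A.Z line rests on it. In the Mll2 line, H2afz was at 7.04 and 7.09 CPM in the WT pair and 19.4 and 14.99 CPM in the KO pair. H2afz was called higher in Mll2 KO (2.43-fold, adjusted p = 1.21e-05). H2afv was at 86.8 and 88.2 CPM in the WT pair and 93.7 and 106 CPM in the KO pair. It was not called in Mll2 KO (adjusted p = 0.165). Counts per symbol do not show whether the deleted part of a gene was transcribed. Kmt2b was at 41.9 and 42.4 CPM in the wild-type pair and 8.73 and 9.28 CPM in the knockout pair, a fall of 4.68-fold (adjusted p = 2.72e-08). Under the DKO label Kmt2b was called higher, at 20.4 and 20.6 CPM against 13.7 and 15.4 CPM in the H2A.Z controls (1.41-fold, adjusted p = 0.0180). All 12 oocyte markers exceeded 10 CPM in all 8 libraries. They summed to 24785 and 23702 CPM in the H2A.Z controls, 22475 and 25857 CPM under the DKO label, 17596 and 21882 CPM in the Mll2 WT pair and 17304 and 15108 CPM in the Mll2 KO pair. In Mll2 KO 3 of the 12 were called, all lower (25%, against 30.6% of all tested genes). These were Zp2, Dppa3 and Oosp1, named after their values were seen. Of 20 granulosa and cumulus markers, 10 stayed under 1 CPM in all 8 libraries, and Fshr, Cyp19a1, Nr5a2 and Kitl exceeded 10 CPM in at least 1. The 20 markers summed to 103 CPM in each H2A.Z control and 138 and 139 CPM under the DKO label. The sums were 106 and 108 CPM in the Mll2 WT pair and 111 and 113 CPM in the Mll2 KO pair. Of 13 tested, 4 were called higher and 1 lower under the DKO label (38.5%, against 30.9% of all tested genes). In Mll2 KO, 4 were called higher and 3 lower (53.8%, against 30.6%), with log2 differences from -1.63 to 3.23. Theca and stroma markers summed to between 9.45 and 27.6 CPM, with Col3a1 and Tagln at 0, and blood, immune and endothelial markers to between 31.3 and 56.0 CPM, with Hba-a1, Hbb-bs, Hbb-bt and Cdh5 at 0. The part of such RNA in the results below was not tested.

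The sequence upstream of 4 genes is shown because these genes carry the largest changes or the highest level below, and because CpG density differs between them. RefSeq promoter windows (GRCm38.p6, 250 bases before an annotated start) were matched for 37 of the 44 genes, in 46 windows. Windows were not used for Actb, Spire1, Diaph1, Cttn, Myo5b, Rac1 and Rock1. Each line below gives the 100 bases before the outermost start annotated in RefSeq or GENCODE M21, on the gene's strand, 5′ to 3′, with each CG dinucleotide in capitals. Ezr lies on chromosome 17 at 6738041 to 6782784 (minus strand), Tmsb10 on chromosome 6 at 72957347 to 72958748 (minus), Tmsb4x on chromosome X at 167207093 to 167209315 (minus) and Rdx on chromosome 9 at 52047173 to 52088735 (plus).
Ezr, chr17:6782785-6782884: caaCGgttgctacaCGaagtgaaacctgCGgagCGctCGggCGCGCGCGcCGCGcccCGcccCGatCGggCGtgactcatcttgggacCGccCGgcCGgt
Tmsb10, chr6:72958749-72958848: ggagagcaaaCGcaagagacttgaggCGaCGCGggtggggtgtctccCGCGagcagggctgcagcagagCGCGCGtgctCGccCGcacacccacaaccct
Tmsb4x, chrX:167209316-167209415: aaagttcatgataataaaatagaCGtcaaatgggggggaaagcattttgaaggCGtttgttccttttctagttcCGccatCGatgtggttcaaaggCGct
Rdx, chr9:52047050-52047149: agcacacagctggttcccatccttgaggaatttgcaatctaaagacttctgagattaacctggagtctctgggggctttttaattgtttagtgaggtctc
These stretches hold 18, 11, 5 and 0 CG dinucleotides, in that order. The number depends on the start and stretch used. Over 250 upstream bases the window of Ezr held 32, those of Tmsb10 28, 21 and 14, that of Tmsb4x 15 and those of Rdx 3 and 10. Over the 250 upstream bases, the 46 windows held a median of 17 CG dinucleotides, with a range of 2 to 46, against a median of 12 in the 15880 windows of tested genes. Windows of the genes called higher, called lower and not called under the DKO label had medians of 16.5, 15.5 and 17.5. In Mll2 KO the same medians were 25.5 for 2 windows, 21 for 11 windows and 16 for 33 windows.

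The CArG box, the element bound by serum response factor, was searched because actin genes are its classic targets. It was found in 2 of the 46 windows (4.35%), those of Actg1 and Arpc4, against 1.22% of the windows of tested genes. The box is in capitals in the following stretches, where it lies 80 bases before the RefSeq start of Actg1 and 240 bases before that of Arpc4. The motif reads the same on both strands.
Actg1, chr11:120348561-120348600, minus strand: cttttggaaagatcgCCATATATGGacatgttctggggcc
Arpc4, chr6:113377863-113377887, plus strand: CCTAATTTGGtgcccaacctgaggt
The motif TATAAA, searched on both strands, was in 3 of the 46 windows (6.52%), those of Myh9, Cdc42 and 1 start of Myo10, against 8.31% of the windows of tested genes. A match describes letters in a window and does not show binding.

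Transcript levels of the 44 genes were compared as CPM per kilobase of annotated exon. Rdx, the ERM linker radixin, was the most abundant in each group, with a mean of 873 CPM per kb in H2A.Z control, 903 under the DKO label, 912 in the Mll2 WT pair and 607 in the Mll2 KO pair. It supplied 46.8% of the CPM summed over the 44 genes in H2A.Z control and 36.3% in Mll2 KO. The monomer-binding Tmsb10, the severing protein Cfl1 and the switch Cdc42 followed in H2A.Z control at 198, 163 and 143 CPM per kb. In the same controls 22 genes lay between 10 and 100 CPM per kb, 9 between 1 and 10, and 9 under 1. The lowest in H2A.Z control were Ezr, Limk1, Msn and Diaph2, at 0.673, 0.518, 0.104 and 0.0679 CPM per kb. Replicates of 39 to 43 genes lay within 1.5-fold of each other, depending on the group, and neighbouring genes in the order often differed by less than that.

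**Figure D1:**
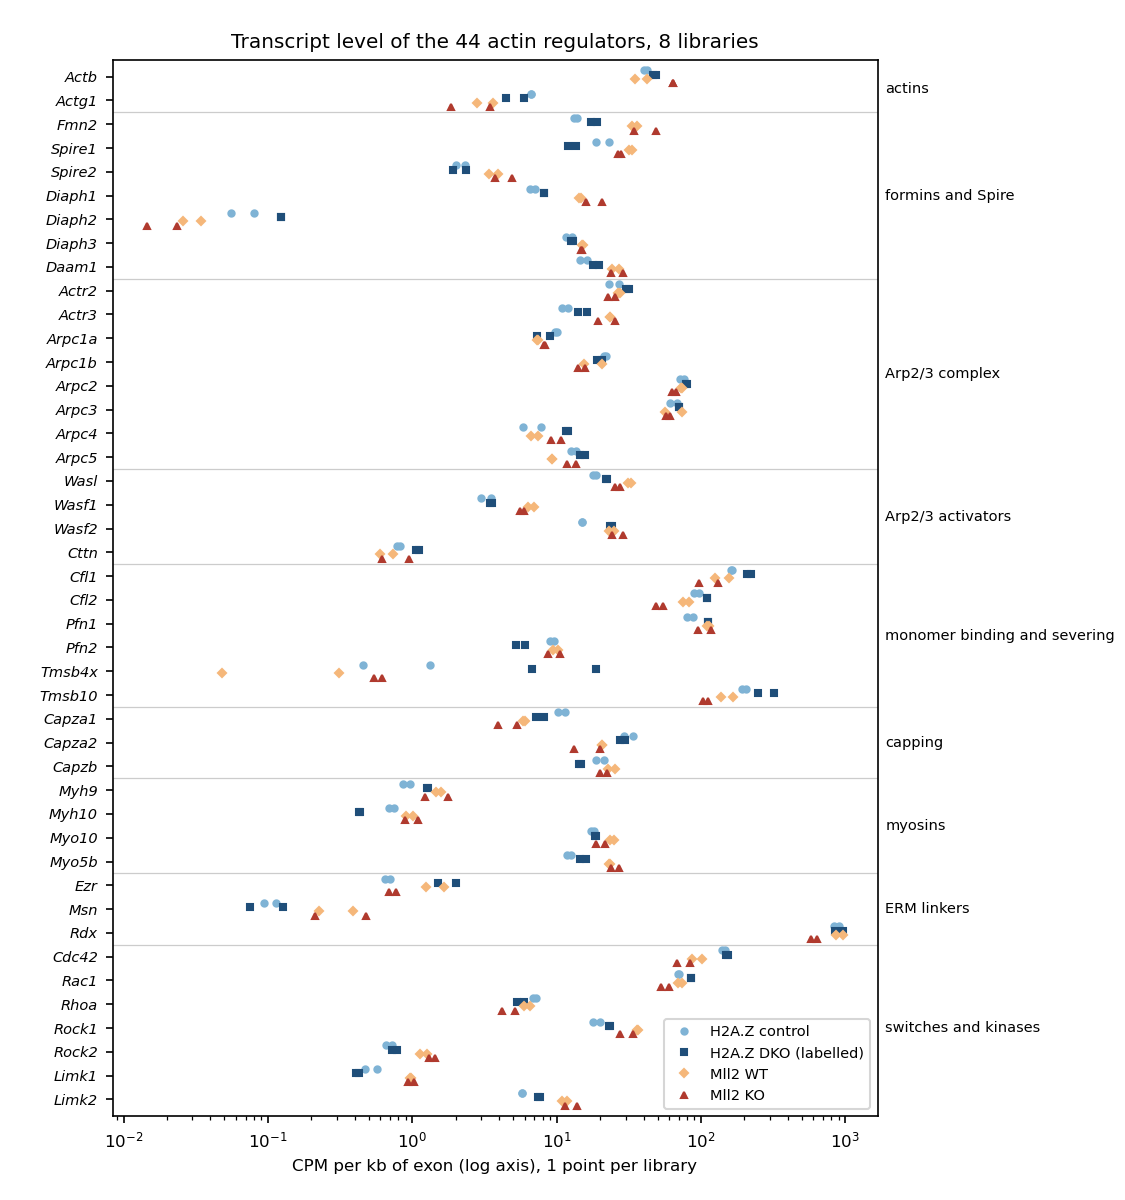
Level of each of the 44 actin regulators as CPM per kilobase of exon on a log axis, with 1 point per library and colour by group, ordered by role. Rdx stands at the right edge in all 8 libraries, and the points of Tmsb4x run from 0.0482 in Mll2 WT 1 to 18.8 in DKO 1.

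In the libraries labelled H2A.Z DKO, 15 of the 44 genes rose and 5 fell against H2A.Z control, so 20 (45.5%) were called where 30.9% of all tested genes were (19.4% higher, 11.5% lower). The median log2 difference of the 44 genes was 0.21, against 0.12 for all tested genes. The genes that rose were Fmn2, Actr2, Actr3, Arpc4, Wasl, Wasf2, Cfl1, Pfn1, Tmsb4x, Tmsb10, Myo5b, Ezr, Rac1, Rock1 and Limk2, and those that fell were Spire1, Pfn2, Capza1, Capzb and Myh10. Tmsb4x, which encodes the monomer-sequestering thymosin β4, rose 13.8-fold, and Ezr, which encodes ezrin, rose 2.61-fold. The other called genes differed by less than 2-fold. Both labelled libraries lay above both controls for 28 genes and below both for 10, against 43.4% and 26.9% of all tested genes, and the groups overlapped for 6. In pooled oocytes, a change in RNA per cell and a change in the makeup of the pool cannot be told apart. The number called and the split between rises and falls depended on the scaling. The 15 and 5 with TMM became 7 and 5 with relative log expression scaling and 5 and 6 with library size alone. With these other scalings 28.8% and 26.9% of all tested genes were called, a larger share than of the 44 genes. The median of all tested genes moved from 0.12 to 0.08 and 0.00. Relative to the all-gene median of 0.12, the rises of Wasl, Rac1, Actr2, Rock1 and Myo5b came to 0.16, 0.16, 0.18, 0.19 and 0.19. Leaving out 1 library gave 7 calls without H2A.Z control 1, H2A.Z control 2 or DKO 1, 6 without DKO 2 and 11 without Mll2 WT 2.

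In Mll2 KO oocytes, 3 of the 44 genes rose and 8 fell against Mll2 WT, so 11 (25%) were called where 30.6% of all tested genes were (14.4% higher, 16.2% lower). The median log2 difference was -0.10, against 0.02 for all tested genes. Actb, Arpc4 and Arpc5 rose. Wasl, Cfl2, Tmsb10, Ezr, Rdx, Cdc42, Rac1 and Rhoa fell, and the fall of Ezr, 2.01-fold, was the only called difference of 2-fold or more. Both knockout libraries lay above both Mll2 WT libraries for 8 genes and below both for 19, against 32.2% and 32% of all tested genes, and the groups overlapped for 17. The split of 3 rises and 8 falls became 4 and 6 with relative log expression scaling and 5 and 4 with library size alone. Without Mll2 WT 1, Mll2 WT 2 or Mll2 KO 1 the number of called genes was 5, 6 and 20. No gene called in either line changed sign under any alternative run.

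**Figure D2:**
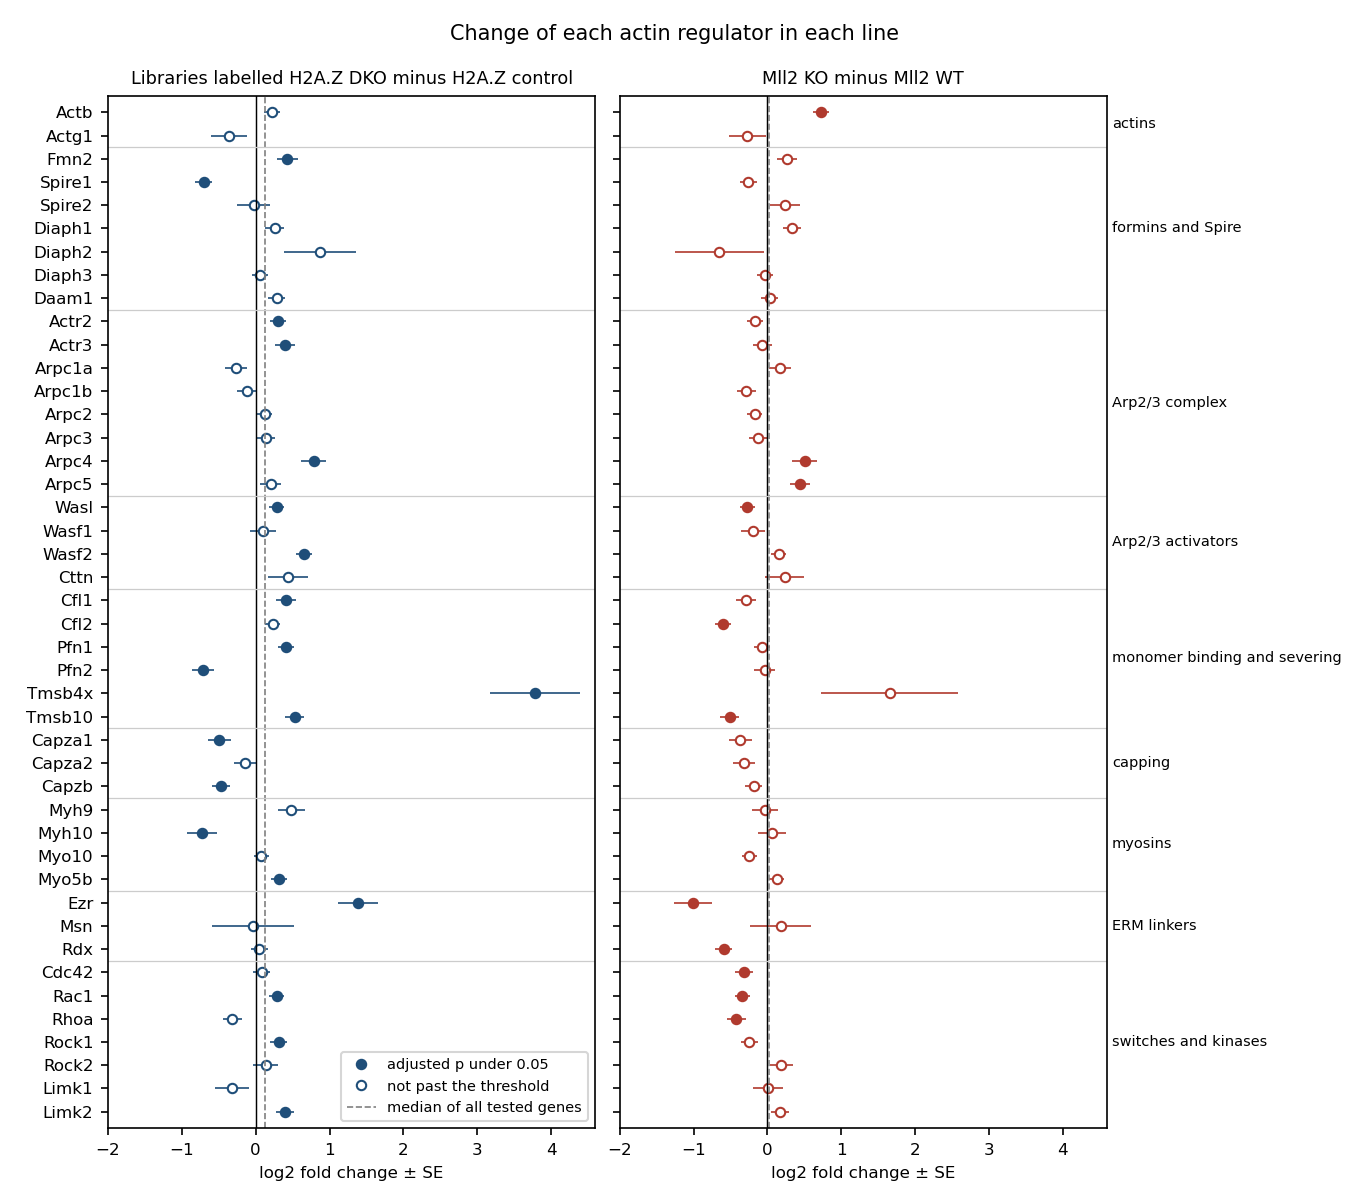
Log2 fold change ± SE of each of the 44 genes in the H2A.Z line (left) and the Mll2 line (right), with filled points for adjusted p under 0.05 and a dashed line at the median of all tested genes. Filled points lie mostly right of 0 on the left (15 of 20) and mostly left of 0 on the right (8 of 11).

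Among the actins, Actb rose in Mll2 KO. Actb, which encodes cytoplasmic β-actin, was at 113 and 108 CPM in the H2A.Z controls, 125 and 130.1 CPM under the DKO label, 93.6 and 112 CPM in the Mll2 WT pair and 172 and 170.2 CPM in the Mll2 KO pair (Mll2 KO against WT 1.66-fold higher, log2 0.73 ± 0.11 SE, adjusted p = 0.000120). The Mll2 KO libraries were the highest of the 8, and the libraries labelled DKO exceeded their controls by less (0.22 ± 0.11, adjusted p = 0.145). Actg1, which encodes the sister γ-actin, was at 17.8 and 17.8 CPM in the H2A.Z controls, 11.9 and 15.8 CPM under the DKO label, 7.44 and 9.60 CPM in the Mll2 WT pair and 9.20 and 4.91 CPM in the Mll2 KO pair. It was not called in either line (adjusted p = 0.283 and 0.440), and the 95% interval of its log2 difference in Mll2 KO, -0.80 to 0.26, includes changes in both directions. Per kilobase, the ratio of Actb to Actg1 was 6.28 and 6.004 in H2A.Z control, 10.4 and 8.16 under the DKO label, 12.5 and 11.6 in the Mll2 WT pair and 18.5 and 34.4 in the Mll2 KO pair. The mutant libraries had the higher ratio in each line. The 2 transcripts match each other at 90% identity or more over at least 200 bases, so reads could be shared between them, and Actb held 26847 counts in all against 2327 for Actg1. The Actb rise in Mll2 KO passed in all 14 alternatives.

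Among the formins and Spire nucleators, the partners of the oocyte's cytoplasmic mesh moved in opposite directions under the DKO label. Fmn2, which encodes formin-2, was at 110.3 and 105 CPM in the H2A.Z controls, 152 and 138 CPM under the DKO label, 265 and 286 CPM in the Mll2 WT pair and 271 and 391 CPM in the Mll2 KO pair. It rose 1.35-fold under the DKO label (log2 0.43 ± 0.14, adjusted p = 0.0266), while in the Mll2 line the groups overlapped and the log2 difference was 0.26 ± 0.14 (adjusted p = 0.153). Spire1, which hands actin seeds to formin-2, was at 179.5 and 145 CPM in the H2A.Z controls, 106 and 93.6 CPM under the DKO label, 259 and 247 CPM in the Mll2 WT pair and 205 and 218 CPM in the Mll2 KO pair. It fell 1.63-fold under the DKO label (log2 -0.70 ± 0.12, adjusted p = 0.000374), with the labelled libraries the lowest of the 8. In Mll2 KO its log2 difference was -0.26 (adjusted p = 0.0999). Its paralog Spire2 was lower per kilobase, by 5.10-fold to 11.5-fold across libraries, and overlapped in both lines. The other formins, Diaph1, Diaph2, Diaph3 and Daam1, were not called in either line, and no gene of this role was called in Mll2 KO. Diaph1 came nearest, at 93.3 and 90.2 CPM in the Mll2 WT pair and 101 and 129.8 CPM in the Mll2 KO pair (adjusted p = 0.0525). Diaph2 held only 18 and 16 counts in H2A.Z control and 32 and 30 under the DKO label, and its interval of -0.16 to 1.90 was the widest of the formins in that line. The Spire1 fall passed in all 14 alternatives, whereas the Fmn2 rise was lost on leaving out any of the 4 libraries of the H2A.Z line or Mll2 WT 2 (adjusted p = 0.0704 to 0.183) and with other scalings and DESeq2 (0.0511 to 0.116).

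The Arp2/3 complex nucleates branches on existing filaments. Of its 8 subunits, 3 rose and none fell under the DKO label (37.5% called, against 30.9% of all tested genes). In Mll2 KO 2 rose and none fell (25%, against 30.6%). Arpc4, a core subunit that holds the complex together, was at 13.7 and 18.1 CPM in the H2A.Z controls, 26.9 and 28.0 CPM under the DKO label, 15.5 and 17.1 CPM in the Mll2 WT pair and 21.3 and 24.9 CPM in the Mll2 KO pair. It rose 1.72-fold under the DKO label (adjusted p = 0.00238) and 1.42-fold in Mll2 KO (adjusted p = 0.0287). It was the only gene of the 44 called higher in both lines (2.27%), a pattern of 5.86% of all tested genes. The test of the difference between its 2 effects gave 0.28 ± 0.23 (adjusted p = 0.435). Actr2 and Actr3 encode the actin-related subunits Arp2 and Arp3. Actr2 was at 141 and 121 CPM in the H2A.Z controls, 158 and 164 CPM under the DKO label, 143 and 138 CPM in the Mll2 WT pair and 118 and 133 CPM in the Mll2 KO pair, a rise of 1.23-fold under the DKO label (adjusted p = 0.0439). Actr3 was at 55.9 and 50.5 CPM in the H2A.Z controls, 74.7 and 65.4 CPM under the DKO label, 108 and 108 CPM in the Mll2 WT pair and 89.8 and 117 CPM in the Mll2 KO pair, a rise of 1.32-fold (adjusted p = 0.0303). Neither was called in Mll2 KO (adjusted p = 0.253 and 0.723). Arpc5 was at 31.1 and 28.8 CPM in the H2A.Z controls, 33.1 and 35.6 CPM under the DKO label, 21.1 and 21.2 CPM in the Mll2 WT pair and 30.9 and 26.7 CPM in the Mll2 KO pair, a rise of 1.36-fold in Mll2 KO (adjusted p = 0.0219). The remaining subunits Arpc1a, Arpc1b, Arpc2 and Arpc3 were not called in either line, and summed over all 8 subunits the level stayed between 667 and 773 CPM. The Arpc4 rise was lost in the H2A.Z line without H2A.Z control 1 (adjusted p = 0.0554) and in the Mll2 line without Mll2 WT 1, Mll2 WT 2 or Mll2 KO 2 (0.108 to 0.183), and that of Arpc5 without Mll2 WT 1 or WT 2 (0.116 to 0.132), and the Arpc4 and Arpc5 rises in Mll2 KO were also lost with that line fitted alone (0.0653 and 0.0801). The Actr2 rise was lost on leaving out any of the 8 libraries (0.0540 to 0.371) and the Actr3 rise on leaving out any library of the H2A.Z line or Mll2 WT 2 (0.0544 to 0.239), and both were lost with other scalings and DESeq2 (0.0894 to 0.224 and 0.0607 to 0.145).

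Of the Arp2/3 activators, Wasf2 and Wasl rose under the DKO label and Wasl fell in Mll2 KO. Wasf2, which encodes the WAVE2 protein that acts downstream of Rac, was at 94.2 and 94.5 CPM in the H2A.Z controls, 147 and 151 CPM under the DKO label, 155 and 145 CPM in the Mll2 WT pair and 152 and 182 CPM in the Mll2 KO pair. It rose 1.58-fold (log2 0.66 ± 0.11, adjusted p = 0.000361) to a level near that of both groups of the Mll2 line. Wasl, which encodes N-WASP, the activator downstream of Cdc42, was at 115 and 109 CPM in the H2A.Z controls, 136 and 137 CPM under the DKO label, 201 and 192 CPM in the Mll2 WT pair and 156 and 170.2 CPM in the Mll2 KO pair. It differed by 0.29 ± 0.10 in the H2A.Z line (adjusted p = 0.0389) and by -0.27 ± 0.10 in the Mll2 line (adjusted p = 0.0475). Wasf1 (WAVE1) and Cttn (cortactin, which stabilizes branches) were not called in either line. The Wasf2 rise passed in all 14 alternatives. The Wasl rise was lost in all 14 (adjusted p = 0.0687 to 0.308 on leaving out a library) and the Wasl fall in 13 of 14 (0.0754 to 0.229 on leaving out any library except Mll2 KO 2).

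The monomer-binding and severing proteins included the most called genes in the H2A.Z line, with 4 rises and 1 fall among 6 (83.3%, against 30.9% of all tested genes). In Mll2 KO there were 2 falls and no rise (33.3%, against 30.6%). Tmsb10, which encodes thymosin β10, was at 260.4 and 245 CPM in the H2A.Z controls, 316 and 412 CPM under the DKO label, 176 and 213 CPM in the Mll2 WT pair and 142 and 132 CPM in the Mll2 KO pair. It rose 1.44-fold under the DKO label (log2 0.53 ± 0.13, adjusted p = 0.00577) and fell 1.42-fold in Mll2 KO (log2 -0.51 ± 0.13, adjusted p = 0.00749). The labelled libraries were the highest and the Mll2 KO libraries the lowest of the 8. Tmsb4x was lower by 13.2-fold to 2854-fold per kilobase across libraries, at 0.620 and 1.83 CPM in the H2A.Z controls, 25.8 and 9.30 CPM under the DKO label, 0.0661 and 0.429 CPM in the Mll2 WT pair and 0.742 and 0.840 CPM in the Mll2 KO pair. In counts these were 12 and 46, 581 and 196, 2 and 13 and 22 and 25. Its 13.8-fold rise under the DKO label (log2 3.78 ± 0.61, adjusted p = 0.00165) was the largest change of the 44 genes, although the labelled libraries differed from each other by 2.77-fold and the 95% interval ran from 2.41 to 5.16 on the log2 scale. It was 2.88 without DKO 1 and 4.81 without H2A.Z control 2. In Mll2 KO the log2 difference of 1.66 ± 0.93 was not called (adjusted p = 0.211). Tmsb4x is also abundant in blood and somatic cells of the ovary, and marker sums for those cells also differed in the H2A.Z line. The blood, immune and endothelial markers summed to 31.7 and 31.3 CPM in the H2A.Z controls and 44.6 and 38.4 CPM under the DKO label, and the theca and stroma markers to 14.4 and 17.4 against 27.6 and 24.3 CPM. In the Mll2 line the first list summed to 51.1 and 48.0 CPM in the WT pair and 45.1 and 56.0 CPM in the KO pair. The second list summed to 9.45 and 10.4 CPM and to 9.68 and 10.6 CPM in the same order. Few genes make up these sums. Of 16 blood, immune and endothelial markers, 11 stayed under 1 CPM in all 8 libraries, and only Pecam1 and Tek exceeded 10 CPM in any. Of 16 theca and stroma markers, 12 stayed under 1 CPM in all 8 libraries, and only Cyp11a1 exceeded 10 CPM in any. Under the DKO label, 2 of the 5 tested blood, immune and endothelial markers had a positive log2 difference and 3 a negative one. All 4 tested theca and stroma markers had a positive one. The part of such cells in this rise was not tested.

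Of the cofilins, which sever filaments, Cfl1 rose under the DKO label and Cfl2 fell in Mll2 KO. Cfl1 (cofilin-1) was at 458 and 468 CPM in the H2A.Z controls, 589.8 and 635 CPM under the DKO label, 354 and 441 CPM in the Mll2 WT pair and 373 and 276 CPM in the Mll2 KO pair, and Cfl2 (cofilin-2) at 316 and 294 CPM in the H2A.Z controls, 359 and 357 CPM under the DKO label, 243 and 272 CPM in the Mll2 WT pair and 179 and 161 CPM in the Mll2 KO pair. Cfl1 rose 1.32-fold under the DKO label (adjusted p = 0.0333) and differed by -0.30 ± 0.14 in Mll2 KO, where the groups overlapped (adjusted p = 0.112). Cfl2 fell 1.52-fold in Mll2 KO (log2 -0.60 ± 0.10, adjusted p = 0.000469) and differed by 0.23 ± 0.10 under the DKO label (adjusted p = 0.0990). The profilins, which feed monomers to formins, parted in the H2A.Z line. Pfn1 was at 193 and 212 CPM in the H2A.Z controls, 271 and 269 CPM under the DKO label, 266 and 274 CPM in the Mll2 WT pair and 283 and 229.6 CPM in the Mll2 KO pair, a rise of 1.33-fold under the DKO label (adjusted p = 0.0106). Pfn2 was at 34.1 and 31.6 CPM in the H2A.Z controls, 21.5 and 18.5 CPM under the DKO label, 36.2 and 33.4 CPM in the Mll2 WT pair and 30.7 and 37.3 CPM in the Mll2 KO pair, a fall of 1.64-fold (log2 -0.72 ± 0.15, adjusted p = 0.00181). The ratio of Pfn1 to Pfn2 per kilobase was 8.35 and 9.87 in H2A.Z control, 18.6 and 21.4 under the DKO label, 10.8 and 12.1 in the Mll2 WT pair and 13.6 and 9.06 in the Mll2 KO pair. Neither profilin was called in Mll2 KO. The Cfl2 and Pfn2 falls passed in all 14 alternatives. The Cfl1 rise was lost on leaving out any library of the H2A.Z line or Mll2 WT 2 (adjusted p = 0.0975 to 0.198) and with library size alone (0.109), the Pfn1 rise without H2A.Z control 1, either library labelled DKO or Mll2 WT 2 (0.0666 to 0.120) and with library size alone (0.0588), that of Tmsb10 without H2A.Z control 2 or DKO 2 (0.0721 to 0.140), the Tmsb10 fall without Mll2 WT 2 or Mll2 KO 2 (0.0594 to 0.0969), and the Tmsb4x rise without Mll2 KO 1 or KO 2 (0.0564) or with the H2A.Z line fitted alone (0.106).

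Capping protein, the heterodimer that closes filament ends, had 2 of 3 subunit genes lower under the DKO label (66.7% called, against 30.9% of all tested genes). Capza1, of the α subunit, was at 43.1 and 38.7 CPM in the H2A.Z controls, 30.9 and 27.1 CPM under the DKO label, 22.2 and 22.7 CPM in the Mll2 WT pair and 20.1 and 14.8 CPM in the Mll2 KO pair, and fell 1.41-fold (log2 -0.49 ± 0.16, adjusted p = 0.0252). Capzb, of the β subunit, was at 61.8 and 70.6 CPM in the H2A.Z controls, 48.7 and 47.0 CPM under the DKO label, 84.3 and 75.1 CPM in the Mll2 WT pair and 74.1 and 66.0 CPM in the Mll2 KO pair, and fell 1.38-fold (log2 -0.47 ± 0.12, adjusted p = 0.00805). The second α gene, Capza2, which exceeded Capza1 per kilobase by 2.88-fold to 4.16-fold across libraries, was at 199 and 174 CPM in H2A.Z control and 161 and 176 CPM under the DKO label, where the groups overlapped (adjusted p = 0.498). In Mll2 KO none of the 3 genes was called, with adjusted p of 0.0915, 0.117 and 0.245 for Capza1, Capza2 and Capzb. The Capza1 fall was lost on leaving out any of the 4 libraries of the H2A.Z line (adjusted p = 0.0708 to 0.192) and the Capzb fall without H2A.Z control 2 or either labelled library (0.0551 to 0.119).

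The myosins moved in both directions under the DKO label. Myh10, a heavy chain of non-muscle myosin II, was at 7.81 and 7.21 CPM in the H2A.Z controls, 4.57 and 4.46 CPM under the DKO label, 10.5 and 9.46 CPM in the Mll2 WT pair and 9.37 and 11.5 CPM in the Mll2 KO pair, and fell 1.66-fold (log2 -0.73 ± 0.21, adjusted p = 0.0134). Its paralog Myh9 was at 12.5 and 11.2 CPM in the H2A.Z controls, 16.3 and 16.7 CPM under the DKO label, 20.6 and 19.0 CPM in the Mll2 WT pair and 15.9 and 22.8 CPM in the Mll2 KO pair and was not called (0.48 ± 0.18, adjusted p = 0.0570). The ratio of Myh9 to Myh10 per kilobase was 1.29 and 1.26 in H2A.Z control and 2.88 and 3.03 under the DKO label, against 1.58 and 1.62 in the Mll2 WT pair and 1.38 and 1.61 in the Mll2 KO pair. Myo5b, the vesicle motor of the actin mesh, was at 122 and 116 CPM in the H2A.Z controls, 155 and 141 CPM under the DKO label, 225 and 227 CPM in the Mll2 WT pair and 231 and 263 CPM in the Mll2 KO pair, a rise of 1.24-fold under the DKO label (adjusted p = 0.0311). Myo10, an unconventional myosin of filopodia, was not called. In Mll2 KO none of the 4 myosins was called, with log2 differences from -0.25 for Myo10 to 0.13 for Myo5b. The Myh10 fall was lost on leaving out any of the 4 libraries of the H2A.Z line (adjusted p = 0.0561 to 0.0925), and the Myo5b rise on leaving out any of these or either Mll2 WT library (0.0544 to 0.244) and with other scalings and DESeq2 (0.0648 to 0.187).

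The ERM proteins link filaments to the plasma membrane, and Ezr showed the widest contrast between the lines. Ezr was at 2.12 and 2.31 CPM in the H2A.Z controls, 6.61 and 4.98 CPM under the DKO label, 5.49 and 4.12 CPM in the Mll2 WT pair and 2.53 and 2.25 CPM in the Mll2 KO pair. It rose 2.61-fold under the DKO label (log2 1.38 ± 0.27, adjusted p = 0.00124) and fell 2.01-fold in Mll2 KO (log2 -1.01 ± 0.26, adjusted p = 0.00794). The H2A.Z control and Mll2 KO libraries were the 4 lowest, with no overlap with the other 4. Rdx was at 4224 and 3872 CPM in the H2A.Z controls, 3927 and 4449 CPM under the DKO label, 4022 and 4443 CPM in the Mll2 WT pair and 2954 and 2676 CPM in the Mll2 KO pair. It fell 1.504-fold in Mll2 KO (log2 -0.59 ± 0.12, adjusted p = 0.00141), and the H2A.Z groups overlapped (adjusted p = 0.784). The 44 genes together, of which Rdx is the largest part, summed to 9372 and 9915 CPM in Mll2 WT and to 7808 and 7684 CPM in Mll2 KO. Msn, which encodes moesin, was near the floor at 0.724 and 0.598 CPM in the H2A.Z controls, 0.798 and 0.475 CPM under the DKO label, 1.42 and 2.44 CPM in the Mll2 WT pair and 1.35 and 3.02 CPM in the Mll2 KO pair, and its groups overlapped in both lines. Rdx exceeded Ezr per kilobase by 421-fold to 1413-fold across libraries. The Rdx fall and the Ezr rise passed in all 14 alternatives, and the Ezr fall was lost only without Mll2 WT 1 (adjusted p = 0.0979).

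**Figure D3:**
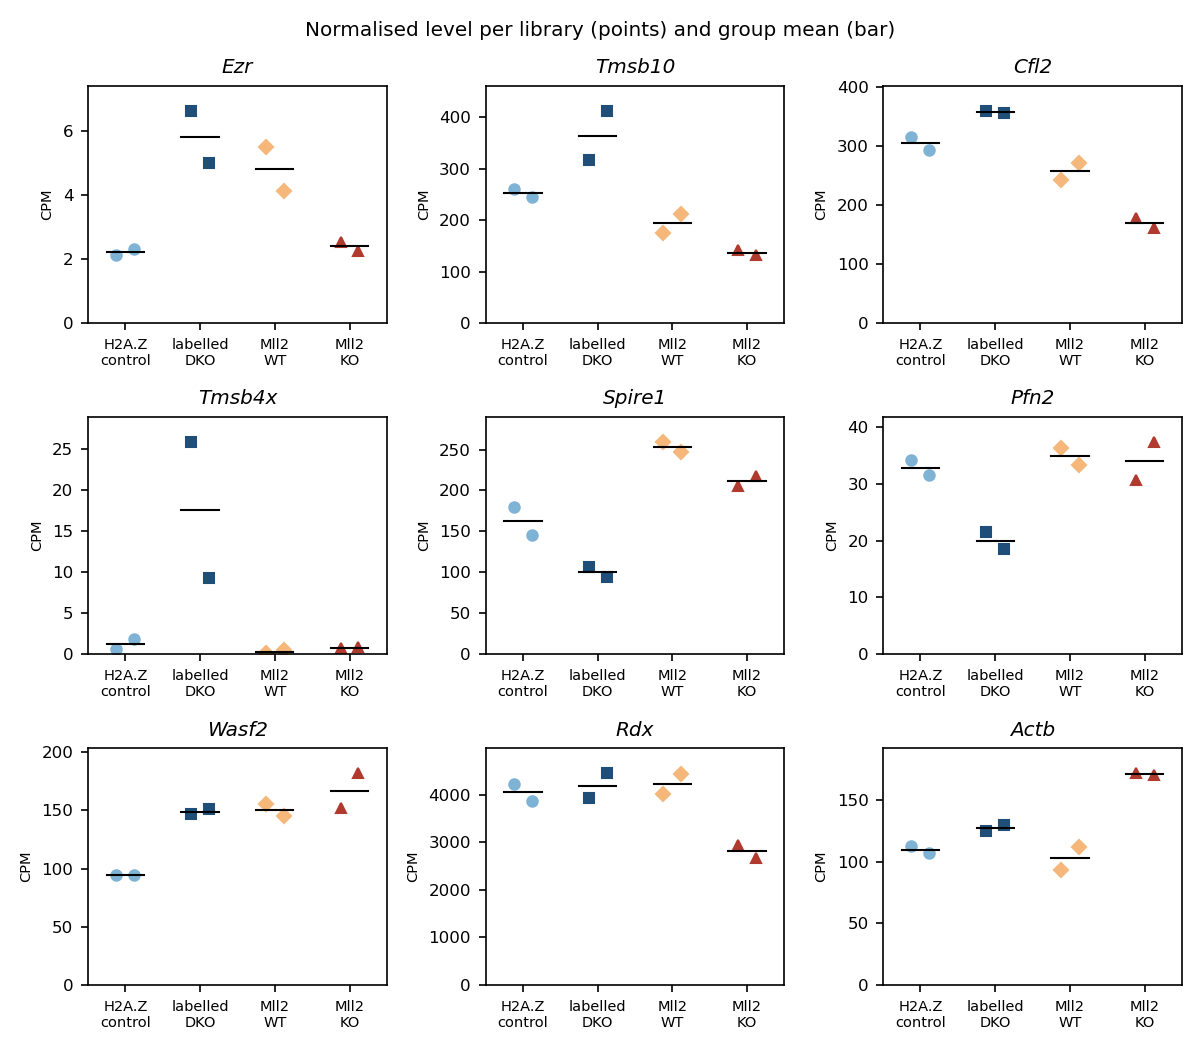
CPM of 9 of the genes in each library (points) with the group mean (bar), on linear axes that start at 0. Ezr and Tmsb10 are higher under the DKO label and lower in Mll2 KO than in their controls, Spire1 and Pfn2 are lower under the DKO label, and Rdx and Cfl2 are lower in Mll2 KO.

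Among the 7 switches and kinases, 3 genes rose under the DKO label and 3 fell in Mll2 KO. These were 42.9% called in each line, against 30.9% and 30.6% of all tested genes. Rac1, the switch upstream of WAVE, was at 316 and 311 CPM in the H2A.Z controls, 381 and 382 CPM under the DKO label, 332 and 309.6 CPM in the Mll2 WT pair and 271 and 236 CPM in the Mll2 KO pair. It rose 1.22-fold under the DKO label (adjusted p = 0.0432) and fell 1.26-fold in Mll2 KO (log2 -0.34 ± 0.10, adjusted p = 0.0190). Cdc42, the switch that polarizes the oocyte cortex, was at 435 and 414 CPM in the H2A.Z controls, 442 and 457 CPM under the DKO label, 259 and 303 CPM in the Mll2 WT pair and 249 and 202 CPM in the Mll2 KO pair, a fall of 1.25-fold in Mll2 KO (adjusted p = 0.0495). Rhoa, a switch that drives contractility through kinases such as Rock1, was at 54.0 and 51.0 CPM in the H2A.Z controls, 39.9 and 44.5 CPM under the DKO label, 48.9 and 44.4 CPM in the Mll2 WT pair and 38.3 and 31.5 CPM in the Mll2 KO pair. It fell 1.34-fold in Mll2 KO (log2 -0.42 ± 0.13, adjusted p = 0.0245) and differed by -0.32 ± 0.13 under the DKO label without passing (adjusted p = 0.0819). Rock1, a kinase that raises myosin II activity, was at 359 and 322 CPM in the H2A.Z controls, 427 and 417 CPM under the DKO label, 648 and 666 CPM in the Mll2 WT pair and 495 and 615 CPM in the Mll2 KO pair, a rise of 1.24-fold under the DKO label (adjusted p = 0.0489). Limk2, which phosphorylates and inactivates cofilin, was at 34.9 and 35.2 CPM in the H2A.Z controls, 46.7 and 45.6 CPM under the DKO label, 71.5 and 66.0 CPM in the Mll2 WT pair and 69.5 and 84.9 CPM in the Mll2 KO pair, a rise of 1.32-fold (adjusted p = 0.0247). Their paralogs Rock2 and Limk1 were lower per kilobase, by 21.1-fold to 32.9-fold and by 10.2-fold to 18.7-fold, and were not called in either line. The rises of Rac1 and Rock1 were lost when any library of the H2A.Z line or either Mll2 WT library was left out (adjusted p = 0.0696 to 0.274 and 0.0735 to 0.325), that of Rac1 also when either Mll2 KO library was, and that of Limk2 on leaving out any library of the H2A.Z line or Mll2 WT 2 (0.0921 to 0.174). Other scalings and DESeq2 also ended the rises of Rac1 (0.0717 to 0.235), Rock1 (0.0929 to 0.217) and Limk2 (0.0518 to 0.141). In the Mll2 line the Rac1 fall was lost without Mll2 WT 1 (0.147), the Rhoa fall without Mll2 WT 1 or WT 2 (0.0516 to 0.169), both also with library size alone or the line fitted alone (0.0933 to 0.0966 and 0.0891 to 0.0958), and the Cdc42 fall on leaving out any library of the H2A.Z line, Mll2 WT 2 or Mll2 KO 2 (0.0752 to 0.286) and with other scalings, DESeq2 or the line fitted alone (0.0524 to 0.171).

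The 2 lines share no library, and the effect in each was set against that in the other. The labels do not say what else differs between the lines, so such differences and the mutations cannot be told apart. The effect in the H2A.Z line was higher than that in the Mll2 line for 11 of the 44 genes and lower for 2, so 13 (29.5%) were called where 19.5% of all tested genes were (12.9% higher, 6.68% lower). The median difference was 0.24, against 0.12 for all tested genes. Ezr differed by 2.39 ± 0.37 on the log2 scale (adjusted p = 0.000364), Tmsb10 by 1.03 ± 0.18 (0.000984) and Cfl2 by 0.83 ± 0.15 (0.000972), and these 3 passed in all 13 alternatives. Ezr, Tmsb10, Rac1 and Wasl were called higher under the DKO label and lower in Mll2 KO, a pattern of 1.69% of all tested genes, although the Rac1 and Wasl rises were lost in 13 and 14 of 14 alternatives. In neither line were 18 genes called (40.9%, against 51.2% of all tested genes). The remaining called differences were those of Actr2, Wasf2, Cfl1, Pfn1, Rdx and Rock1, with a higher effect in the H2A.Z line, and of Actb and Pfn2, with a lower one. The difference for Tmsb4x, 2.12 ± 1.23, was not called (adjusted p = 0.267). With library size alone, 3 differences were higher and 5 lower, where 17.6% of all tested genes were called. With relative log expression scaling 8 were higher and 4 lower, where 18.2% were called. Without H2A.Z control 1, H2A.Z control 2, DKO 1, DKO 2, Mll2 WT 1 or Mll2 WT 2, the numbers called were 8, 4, 6, 4, 6 and 5.

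**Figure D4:**
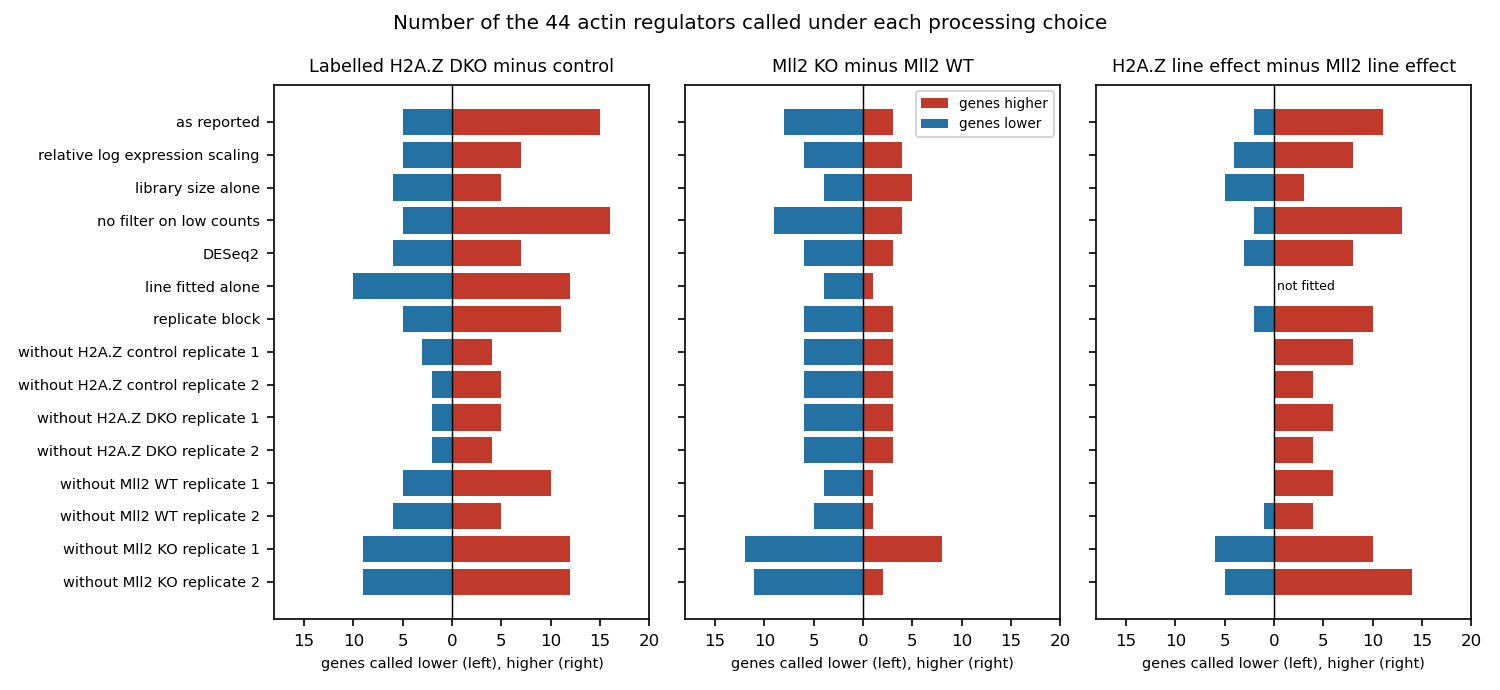
Number of the 44 genes called higher (right, red) and lower (left, blue) in each comparison as reported and under each alternative. The H2A.Z line gave between 6 and 22 calls, the Mll2 line between 5 and 20 and the difference between the lines from 4 to 19.

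Other genes of the actin system were read from lists by role, against the 30.9% and 30.6% of all tested genes called in the 2 lines, and those with the smallest p in each list are named. Among nucleators and cofactors (25 tested, 3 rises and 3 falls under the DKO label, 3 and 4 in Mll2 KO), Wasf3, the third WAVE gene, fell from 8.17 and 9.01 to 1.64 and 2.23 CPM under the DKO label (log2 -2.15 ± 0.22, adjusted p = 4.88e-06). Cyfip1 and Abi1, which encode WAVE complex subunits, fell and rose, by -0.63 and 0.54 under the DKO label and by -0.59 and 0.70 in Mll2 KO. In Mll2 KO the nucleator Cobl fell from 7.21 and 12.8 to 2.73 and 3.70 CPM (adjusted p = 0.000414) and the formin Fmnl3 from 189 and 179.8 to 114 and 141 CPM (adjusted p = 0.00283). Fmnl3 was called higher under the DKO label, a call kept in 9 of 14 alternatives. Among turnover and monomer-binding genes (24 tested, 4 rises and 2 falls, then 4 and 4), Pfn4, a profilin best known from testis, was at 40.1 and 37.5 CPM in the H2A.Z controls, 16.9 and 24.3 CPM under the DKO label, 31.4 and 32.6 CPM in the Mll2 WT pair and 1.85 and 1.88 CPM in the Mll2 KO pair. It fell 1.88-fold under the DKO label and 17.1-fold in Mll2 KO (adjusted p = 0.000760 and 1.19e-09). Coro2b, a coronin, rose in both lines, 1.85-fold and 2.27-fold (adjusted p = 0.00140 and 4.58e-05). Wdr1, a cofactor of cofilin, rose 1.58-fold under the DKO label, and Tmod2, which caps pointed ends, fell 2.56-fold in Mll2 KO (adjusted p = 0.00119 and 8.67e-05). The Cyfip1 falls were lost without H2A.Z control 1 or DKO 2 (adjusted p = 0.0572 to 0.0878) and without Mll2 WT 1 (0.0741), and the Abi1 rise under the DKO label without H2A.Z control 2, DKO 1 or Mll2 WT 2 (0.0543 to 0.0785).

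Among crosslinkers, tropomyosins and bundlers (28 tested, 6 rises and 3 falls under the DKO label, 0 rises and 5 falls in Mll2 KO), Pls3, a plastin that bundles filaments, rose from 4.29 and 6.06 to 19.8 and 14.9 CPM under the DKO label (adjusted p = 0.000351). Tpm4, a tropomyosin, fell from 7.77 and 8.31 to 1.52 and 0.571 CPM in Mll2 KO (log2 -2.94 ± 0.33, adjusted p = 1e-05), or by -3.79 without Mll2 KO 1. Sptbn1 and Vcl, which encode a spectrin chain and vinculin, rose 1.49-fold and 1.495-fold under the DKO label, and Enah and Pls1 fell 1.71-fold and 1.58-fold in Mll2 KO. Sptbn1 went the other way in Mll2 KO, where it was called lower, a call kept in 11 of 14 alternatives. Among myosins and their regulators (27 tested, 5 and 3, then 4 and 9), Myo7a fell from 6.36 and 5.74 to 0.710 and 0.854 CPM under the DKO label (log2 -2.94 ± 0.29, adjusted p = 4.14e-06). Myo7a was also called lower in Mll2 KO, a call kept in 13 of 14 alternatives, with log2 differences of -1.13 to -0.606 over them. Ect2, an exchange factor of cytokinesis, and Ppp1cb, a myosin phosphatase subunit, rose 1.45-fold and 1.5-fold under that label. Ect2 was also called higher in Mll2 KO, a call kept in 4 of 14 alternatives. In Mll2 KO the contractile-ring scaffold Anln and the septin gene listed as Sept7 fell 1.504-fold and 1.34-fold. The rise of Sptbn1 was lost without H2A.Z control 2 (adjusted p = 0.0684), that of Vcl without H2A.Z control 2 or DKO 1 (0.0555 to 0.0717) and that of Ppp1cb without H2A.Z control 1 or DKO 1 (0.0774 to 0.0788).

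Serum response factor and its MRTF cofactors switch on actin genes when monomeric actin is scarce, and all 4 of their genes in the table were tested. Srf was at 7.91 and 9.68 CPM in the H2A.Z controls, 18.5 and 16.3 CPM under the DKO label, 30.6 and 28.3 CPM in the Mll2 WT pair and 38.3 and 66.9 CPM in the Mll2 KO pair. It rose 1.97-fold under the DKO label (adjusted p = 0.00411) and 1.79-fold in Mll2 KO (adjusted p = 0.00591), with the 2 Mll2 KO libraries far apart. Mkl2, which encodes MRTF-B, fell 1.32-fold in Mll2 KO (adjusted p = 0.0118). That call was lost with library size alone or with the Mll2 line fitted alone (0.0594 to 0.0657). The Srf rise was lost without H2A.Z control 1 (0.0544) in the H2A.Z line and without Mll2 WT 2 or Mll2 KO 2 (0.0797 to 0.0914) in the Mll2 line, and the Mkl2 fall without Mll2 WT 1 (0.0947). A search of annotated transcripts found a near-identical gene (90% identity over 200 bases or more) for 17 of the 44 actin regulators and none for 27. Most of these near-identical genes are pseudogenes, and how the authors' counting placed reads that fit both copies is not given in the sources used here.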

How the data were processed

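Polyadenylated RNA from 8 libraries of full-grown mouse oocytes was measured as gene-level counts. Per the labels' protocols, cDNA was made with SMART-Seq v4 and libraries with Nextera XT. The authors deposited whole-number counts per gene symbol, and the submitters' processing notes name Trim Galore 0.6.4, STAR 2.7.3, RSEM 1.3.1 and mm10. Neither their settings nor the annotation or any rounding is recorded in the labels. SMART-Seq cDNA carries no molecular identifiers, so counts include amplified copies.

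Counts were scaled by TMM, filtered by group with filterByExpr and fitted over all 8 libraries as 4 group means with edgeR 4.0.16 (limma 3.58.1, R 4.3.3) using the robust quasi-likelihood test on 4 residual degrees of freedom. The spread of each gene was moderated by that of all genes, with a median of 11.8 prior degrees of freedom. P-values were adjusted by the Benjamini-Hochberg method over all 16847 tested genes. Comparisons were each mutant against its own controls, and the difference between these effects. Errors beside log2 fold changes are SE, taken as the size of the log2 fold change divided by the square root of the F statistic, and intervals are 95%. Exon lengths and gene positions are from GENCODE M21, promoter windows from RefSeq, and near-identical transcripts were sought with BLAST 2.17.0. The fit was also run on simulated counts with the same dispersion for every gene and group. Spread differed between groups in these data, so that run gives no error rate for them. Alternatives were other scalings, no filter, DESeq2 1.42.0, each line alone, a replicate block and leaving out each library. The 44 genes, all other lists and the rule for naming genes were chosen with earlier results of these data known. The rule gives all 44 genes, the targeted genes and up to 3 called genes with the smallest p from each other list and mutant comparison. The results of 1 list of other genes and of 1 gene of another list that this rule gives are not reported here.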

Additional observations from a re-analysis of the deposited data

Results flagged for a closer look

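For 13 of the 44 genes, the effect under the H2A.Z DKO label differed from that in Mll2 KO by the test of the difference itself (edgeR, adjusted p under 0.05). Values are log2 effects in the H2A.Z line minus those in the Mll2 line, in which mutation and line cannot be told apart. Ezr differed by 2.39 (1.38 against -1.01), Tmsb10 by 1.03 (0.53 against -0.51) and Cfl2 by 0.83 (0.23 against -0.60), and all 3 passed in all 13 alternatives. Cfl1 differed by 0.70, Rdx by 0.64, Rac1 by 0.62, Wasl by 0.55, Rock1 by 0.55, Wasf2 by 0.51, Pfn1 by 0.49 and Actr2 by 0.47. Actb differed by -0.52 and Pfn2 by -0.68. In Rdx the effect sat in Mll2 KO (0.05 against -0.59) and in Pfn2 under the DKO label (-0.72 against -0.03).

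Leaving out 1 library ended most of these calls. For Cfl1 this held on leaving out any library of the H2A.Z line or Mll2 WT 2 (adjusted p = 0.0515 to 0.173), and for Actb on leaving out any library of the H2A.Z line or Mll2 WT 1 (0.0810 to 0.168). The Pfn2 call was lost on leaving out any library of the H2A.Z line or either Mll2 WT library (0.0506 to 0.135), that of Rdx without H2A.Z control 2, DKO 2 or Mll2 WT 2 (0.0878 to 0.0988), and that of Wasl without H2A.Z control 2, DKO 2, Mll2 WT 1 or WT 2 (0.0508 to 0.0898). For Actr2 and Rock1 these were H2A.Z control 2, DKO 1, DKO 2, Mll2 WT 1, Mll2 WT 2 and Mll2 KO 1 (0.100 to 0.218 and 0.0605 to 0.174). The Wasf2 call was lost on leaving out any library but Mll2 KO 2 (0.0809 to 0.149) and the Pfn1 call on leaving out any but Mll2 KO 1 (0.0802 to 0.227). Library size alone also ended the calls of Cfl1 (0.0908), Rdx (0.0550), Wasl (0.143) and Rock1 (0.188), and was the only alternative to end that of Rac1 (0.0682). Both other scalings and DESeq2 ended those of Actr2 (0.0851 to 0.329), Wasf2 (0.0641 to 0.281) and Pfn1 (0.0577 to 0.299).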

How the results depend on the processing

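Of the genes called, 4 of 20 in the H2A.Z line (Ezr, Pfn2, Spire1 and Wasf2), 3 of 11 in the Mll2 line (Actb, Cfl2 and Rdx) and 3 of 13 for the difference (Cfl2, Ezr and Tmsb10) passed under every alternative run, and none of the called genes changed sign. The 20 calls in the H2A.Z line (15 higher, 5 lower) became 12 (7 and 5) with relative log expression scaling, 11 (5 and 6) with library size alone, 13 (7 and 6) with DESeq2 and 22 (12 and 10) with the line fitted alone. The 11 calls in the Mll2 line (3 and 8) became 10 (4 and 6), 9 (5 and 4), 9 (3 and 6) and 5 (1 and 4) in the same order. The 13 differences (11 and 2) became 12 (8 and 4), 8 (3 and 5) and 11 (8 and 3), and no line can be fitted alone for them. Without the filter the calls were 21, 13 and 15. With the replicate block they were 16 (11 and 5), 9 (3 and 6) and 12 (10 and 2). The labels name no pairing of same-numbered libraries. The deviations of such libraries from their group means did not go together (correlations of 0.0395 and -0.0221), which cannot show whether they were prepared together. Leaving out 1 library gave 6 to 21 calls in the H2A.Z line (4 to 12 higher, 2 to 9 lower), 5 to 20 in the Mll2 line (1 to 8 higher, 4 to 12 lower) and 4 to 19 differences (4 to 14 higher, 0 to 6 lower). Scaling moved the share of all called genes that were higher from 62.9% with TMM to 56.9% and 45.5% in the H2A.Z line, from 47.1% to 49.5% and 62.9% in the Mll2 line, and from 65.8% to 58.8% and 37.0% for the difference. The median of the 44 genes minus that of all tested genes was 0.08 in the H2A.Z line, 0.16 with DESeq2 or without the filter and 0.06 without H2A.Z control 2, and -0.12 in the Mll2 line, -0.09 with the line fitted alone and -0.08 without Mll2 KO 1. Depth limits Tmsb4x, Diaph2 and Msn, with few counts in several libraries, and 2 libraries a group limit every test.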
